A study of Mus musculus with 10 samples.

Results

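The 10 genes described here carry the myostatin and activin pathway: the ligand Mstn, the ligand traps Fst and Fstl3, the type II receptors Acvr2a, Acvr2b and Bmpr2, and the signal carriers Smad2, Smad3, Smad4 and Smad7. They were taken from a fixed list, matched by symbol to curated RefSeq transcripts on GRCm38 (mm10), and all 10 were found among 26180 genes. Each gene was given a window made of its gene body and the 30 kb on either side of its transcription start site (TSS), and a peak belonged to the gene when its midpoint fell in that window. Such a window also holds parts of neighbouring genes, so a peak is named here by where it lies and not by the gene it acts on.

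Myostatin is a secreted member of the TGF-beta family that restrains muscle growth. It binds the activin type II receptors, which then activate type I receptors, and these phosphorylate Smad2 and Smad3, which enter the nucleus with Smad4. Follistatin (Fst) and follistatin-like 3 (Fstl3) bind and neutralise the ligands, and Smad7 blocks the activated receptors. Glucocorticoids act in muscle through the glucocorticoid receptor (GR), a DNA-binding nuclear receptor, and LSD1 is a lysine demethylase that acts on histone H3 and is found at promoters and enhancers.

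Chromatin from skeletal muscle of C57BL/6J mice, labelled as 10 weeks old, was immunoprecipitated with antibodies to GR, LSD1, monomethylated lysine 9 of histone H3 (H3K9me1) or dimethylated lysine 9 (H3K9me2), or kept as input. The mice were either fed or starved for 24 h, and no mutation or drug is labelled in either. Each antibody and condition had 1 library, so the 10 libraries gave 8 peak lists and 2 inputs, and no spread between animals could be measured. The extracts were of whole muscle, in which nuclei of fibres and of other cells cannot be told apart.

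The lists held between 6624 and 171402 peaks, and their read depth was not analysed here. The deposited LSD1 starved list is far longer than the starved LSD1 peak set described in the study's text, so every LSD1 starved count, rank and overlap below refers to the list as deposited, of which 10.2% of peaks had a q-value of 0.01 or less. Both GR lists and both LSD1 lists had a peak in the window of all 6 fibre markers, and 4 or 5 of these 6 had one in the promoter. Of the 11 markers of endothelium, fibroblasts, immune cells and satellite cells, 6 had a GR peak in the window in fed and 9 in starved muscle, and 6 and 8 an LSD1 peak. Over all genes the window shares, fed and starved, were 43.1% and 66.5% for GR and 51.1% and 83.7% for LSD1. Among these 11, the promoters with a peak were that of Pecam1 in the LSD1 starved list and that of Myf5 in the GR starved list. Promoter shares over all genes, fed and starved, were 13.4% and 23.3% for GR and 22.4% and 16.2% for LSD1. The deposited lists reach q-values between 0.0925 and 0.0998, so counts are also given for peaks whose q-value was at most 0.01. The libraries carry the codes P2727 and P2731 in the labels. Both GR libraries and both inputs have P2727, and both LSD1 libraries have P2731. Each histone mark has P2727 fed and P2731 starved, so that for H3K9me1 and H3K9me2 the code and starvation cannot be told apart. Between GR and LSD1 the code and the antibody cannot be told apart either.

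The 3 stretches of sequence that carry the main results are printed first. The GR peak of highest fold enrichment near any of the 10 genes lay 23.9 kb upstream of Mstn, and 300 bases around its midpoint (chr1:53037617-53037916, plus strand) are shown with a MEF2 element in capitals. MEF2 is the myocyte enhancer factor 2 family, which activates muscle genes, and the element was taken as CTA and TAG around 4 bases that are A or T, which reads the same on both strands. The second stretch is from an intron of Acvr2b, 7.1 kb downstream of its TSS (chr9:119409131-119409430, plus strand), again with the MEF2 element in capitals. The third is the whole fed GR peak in an intron of Smad3, 99.3 kb from the TSS (chr9:63658559-63658742, plus strand), with the closest match to a glucocorticoid response element (GRE) in capitals. All 3 were read from the RefSeq genome of GRCm38.
Mstn upstream site: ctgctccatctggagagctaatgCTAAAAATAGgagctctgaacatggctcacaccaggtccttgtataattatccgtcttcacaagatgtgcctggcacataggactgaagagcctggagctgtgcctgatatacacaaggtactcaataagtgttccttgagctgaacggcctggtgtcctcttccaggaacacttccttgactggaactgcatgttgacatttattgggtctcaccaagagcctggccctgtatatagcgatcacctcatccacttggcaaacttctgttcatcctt
Acvr2b intronic site: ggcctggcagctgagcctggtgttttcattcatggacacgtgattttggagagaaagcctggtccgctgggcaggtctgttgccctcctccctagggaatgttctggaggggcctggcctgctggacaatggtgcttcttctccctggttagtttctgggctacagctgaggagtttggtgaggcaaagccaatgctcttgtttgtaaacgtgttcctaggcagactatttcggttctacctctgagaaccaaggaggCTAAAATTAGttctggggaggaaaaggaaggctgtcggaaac
Smad3 intronic site: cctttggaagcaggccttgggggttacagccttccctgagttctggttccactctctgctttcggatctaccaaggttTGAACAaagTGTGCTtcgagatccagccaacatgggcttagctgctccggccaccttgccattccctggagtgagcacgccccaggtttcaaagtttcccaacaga

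The Mstn site holds CTAAAAATAG at chr1:53037640-53037649 and the Acvr2b site holds CTAAAATTAG at chr9:119409389-119409398. The MEF2 element was searched after the sequence of the Mstn site had been read, so its presence there is a description. Over the whole lists it occurred in 2.61% of GR fed peaks, 1.27% of GR starved peaks, 1.5% of LSD1 fed peaks and 0.204% of LSD1 starved peaks, and in 2.27% of the 300-base stretches around the midpoints of all GR fed peaks. Near the 10 genes it occurred in 2 of 19 GR fed peaks and 2 of 38 GR starved peaks, which were the Mstn and Acvr2b sites in both conditions. In the LSD1 fed list it occurred in 3 of 31 peaks, at these same sites and in a further Acvr2b intronic peak 23.2 kb from the TSS, where it read CTATAAATAG. None of the 41 LSD1 starved peaks held it.

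The GRE was searched as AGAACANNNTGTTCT a sequence that reads the same on both strands. No GR peak near the 10 genes, of 19 in fed and 38 in starved muscle, matched it with at most 1 mismatch, a match held by 2.17% of all GR fed peaks and 0.712% of all GR starved peaks. With up to 2 mismatches, 2 of the 19 fed peaks matched, beside 9.75% of the whole list, and 1 of the 38 starved peaks, beside 4.33%. The Smad3 match, TGAACAaagTGTGCT at chr9:63658637-63658651, differs from the GRE by A1T and T13G, counted from 1 at the first base of the element. The other match lay in an intron of Bmpr2, 15.4 kb from the TSS, read AGGACAgccTGTGCT at chr1:59779660-59779674, and differs by A3G and T13G. At the Mstn site the closest stretch had 4 mismatches, as few as 67.4% of GR fed peaks have. Among all GR fed peaks with a fold of at least 5, 7.28% matched with at most 1 mismatch and 29.8% with at most 2. The NRF1 element GCGCATGCGC, which reads the same on both strands and binds nuclear respiratory factor 1, was in none of the GR and LSD1 peaks near the 10 genes, and in between 0.0984% and 0.814% of the peaks of the 4 whole lists.

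Peaks of GR and LSD1 were found near most of the 10 genes. In fed muscle 7 of the 10 had a GR peak, against 43.1% of all genes, and in starved muscle 9 of the 10, against 66.5%. An LSD1 peak was near all 10 in both conditions, against 51.1% of all genes in fed and 83.7% in starved muscle. With a q-value of 0.01 or less, the GR counts were 7 of 10 in fed muscle (33.6% of all genes) and 6 of 10 in starved muscle (40.6%), and the LSD1 counts were 7 of 10 (32.4%) and 4 of 10 (24.0%). Counted as peaks, the 0.913 Mb of the 10 windows held 19 GR peaks in fed and 38 in starved muscle, and 31 and 41 LSD1 peaks. Per 100 kb this was 2.08 GR fed peaks beside 1.06 over all genes, 4.16 GR starved peaks beside 2.88, 3.39 LSD1 fed peaks beside 1.38 and 4.49 LSD1 starved peaks beside 3.23. With a q-value of 0.01 or less the windows held 18 GR peaks in fed and 20 in starved muscle, and 14 and 4 LSD1 peaks. Per 100 kb the GR densities were then 1.97 fed and 2.19 starved, beside 0.715 and 1.02 over all genes. For LSD1 they were 1.53 and 0.438, beside 0.605 and 0.359.

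A single gene weighed heavily on these totals. Smad3 alone held 8 of the 19 GR peaks in fed muscle and 18 of the 38 in starved muscle, and 11 of the 31 and 10 of the 41 LSD1 peaks. Without Smad3 the density per 100 kb was 1.42 GR peaks in fed and 2.59 in starved muscle, and 2.59 and 4.02 LSD1 peaks, so that the GR starved density was then below the 2.88 over all genes. The windows of the 10 genes had a median length of 84.5 kb, beside 60.0 kb over all genes. Among the 5 genes with windows of 60.0 to 70.0 kb (Mstn, Fst, Fstl3, Smad7 and Acvr2b), 4 had a GR fed peak and all 5 an LSD1 fed peak, beside 41.1% and 49.4% of the 19815 genes with windows in that range. Among the 5 with windows of 99.0 to 144 kb (Smad4, Smad2, Acvr2a, Smad3 and Bmpr2), 3 had a GR fed peak and all 5 an LSD1 fed peak, beside 50.8% and 59.4% of 1636 genes.

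**Figure D1:**
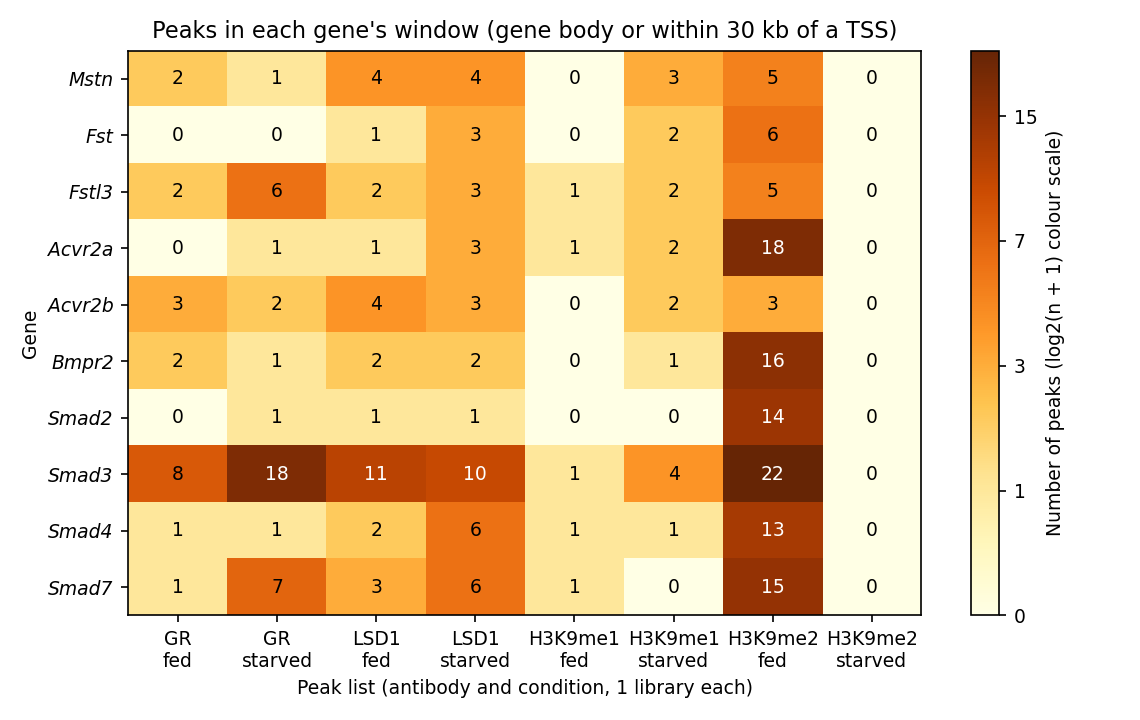
Number of peaks in the window of each of the 10 genes (rows) in each of the 8 peak lists (columns, 1 library each), with the number written in each cell and the colour on a log2(n + 1) scale. Smad3 has the highest count in both GR lists and both LSD1 lists, Fst has no GR peak, and the H3K9me2 starved column is 0 throughout.

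**Figure D2:**
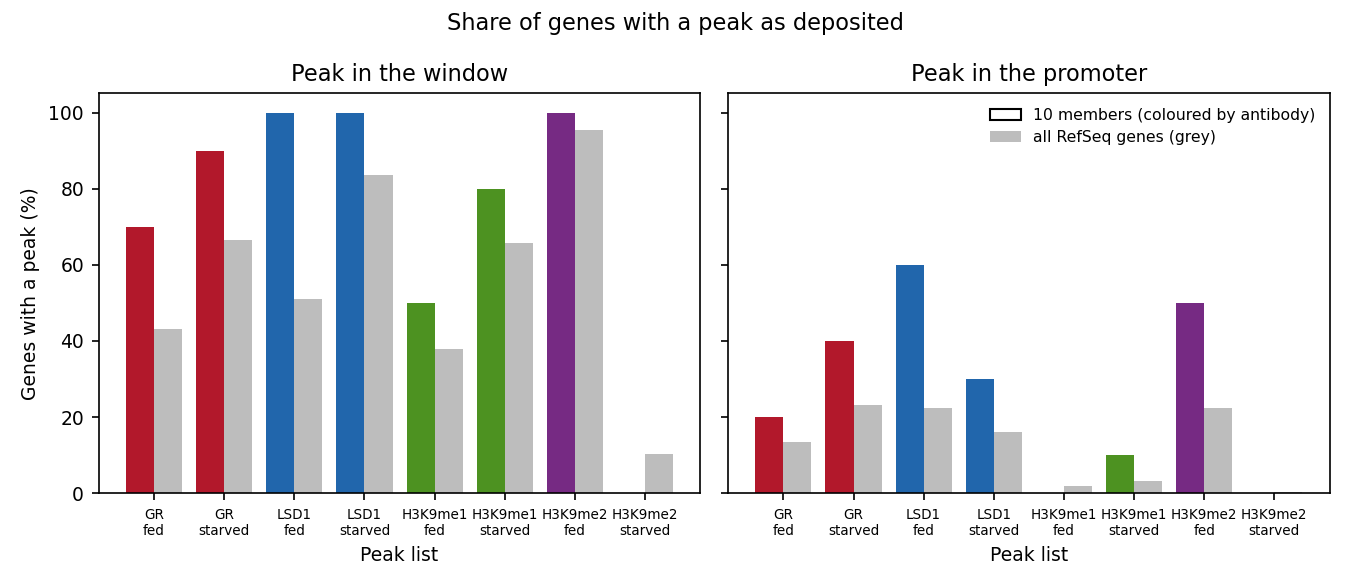
Percentage of the 10 genes (coloured bars) and of all 26180 RefSeq genes (grey bars) with a peak in the window (left) or in the promoter (right), for each peak list as deposited. For LSD1 fed the bars stand at 100% beside 51.1% in the window and at 60.0% beside 22.4% in the promoter.

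The ligand gene had the strongest GR site. Mstn (chr1:53061640-53068079, plus strand) had 2 GR peaks in fed and 1 in starved muscle, and 4 LSD1 peaks in each condition. Its upstream GR peak had a fold enrichment over input of 13.0 in fed muscle (chr1:53037544-53037988, q-value 1.71e-64) and of 7.9 in starved muscle (chr1:53037441-53038058, q-value 2.02e-33). Among all GR peaks it ranked 23 of 14108 by fold in the fed list and 120 of 37783 in the starved list, so it was near the top of both. An LSD1 fed peak covered the same place with a fold of 4.16 and a q-value of 0.0101, and no LSD1 starved peak overlapped it. The LSD1 starved peaks nearest to it lay 20.5 kb and 19.1 kb upstream of the TSS, with folds of 3.23 and 3.4.

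The other Mstn peaks were weaker. The second GR fed peak lay 18.4 kb downstream of the TSS, with a fold of 3.11 and a q-value of 0.00626. It was overlapped by the highest LSD1 fed peak of the gene, of fold 4.68 and q-value 0.00115, and by no GR starved peak. The highest LSD1 starved peak of Mstn lay 10.3 kb downstream, with a fold of 4.24 and a q-value of 0.00683. None of the 8 lists had a peak in the Mstn promoter, taken as 1000 bp upstream to 100 bp downstream of the TSS.

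The genes of the ligand traps differed from each other in GR. Fst (chr13:114452262-114458951, minus strand) had no GR peak in either condition, while Fstl3 (chr10:79777274-79782630, plus strand) had 2 in fed and 6 in starved muscle. Fst had 1 LSD1 fed peak, with a fold of 3.52 and a q-value of 0.0567, and 3 LSD1 starved peaks, of which the highest had a fold of 3.62 and a q-value of 0.0346. All of these Fst peaks were above the q-value of 0.01. In an intron of Fstl3, 3.15 kb from the TSS, GR had a fold of 3.21 in fed muscle (q-value 0.00181) and 2.94 in starved muscle (q-value 0.00152). The highest LSD1 fed peak of any of the 10 genes, of fold 5.02 and q-value 0.000318, overlapped it at 2.83 kb. This LSD1 peak was 55 bp long, the shortest length in its list.

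The window of Fstl3 lies among close neighbours. GR peaks of both conditions and 1 LSD1 fed peak overlapped one another about 10.2 to 10.6 kb upstream, with folds of 2.83 for GR fed, 2.66 for GR starved and 4.0 for LSD1 fed, and their nearest TSS was that of Rnf126. Of the 6 GR starved peaks of Fstl3, only the intronic one had its own TSS as the nearest, and the others were nearer to Fgf22, Rnf126 or Palm. The highest Fstl3 peak in the LSD1 starved list had a fold of 3.31 with a q-value of 0.0748, and lay nearest to Prss57.

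Among the 3 type II receptor genes, the most GR and LSD1 peaks in fed muscle were at Acvr2b (chr9:119402178-119442148, plus strand). Acvr2b encodes the main type II receptor for myostatin in muscle. It had 3 GR peaks in fed and 2 in starved muscle, and 4 LSD1 peaks in fed and 3 in starved muscle. At the intronic site printed above, GR had a fold of 4.15 in fed muscle (q-value 6.35e-06) and of 3.79 in starved muscle (q-value 6.71e-06). LSD1 had a fold of 4.31 there in fed muscle (q-value 0.00585), and in starved muscle 2 short peaks of folds 3.53 and 3.6 whose q-values were 0.0268 and 0.0506. The site was therefore called in all 4 lists, and an H3K9me1 starved peak of fold 3.84 (q-value 0.0266) also lay on it.

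At the Acvr2b start site GR was called in both conditions and LSD1 in fed muscle. The GR fed peak spanned the TSS with its midpoint 131 bp downstream, just outside the promoter limit of 100 bp, and had a fold of 3.67 and a q-value of 9.38e-05. The GR starved peak had its midpoint 0.109 kb upstream, with a fold of 2.97 and a q-value of 0.00416. The LSD1 fed peak lay 0.062 kb upstream with a fold of 4.24 and a q-value of 0.00661. The highest LSD1 starved peak of the gene, of fold 3.79 (q-value 0.0263), lay 5.81 kb into the gene, where a GR fed peak of fold 2.9 and an LSD1 fed peak of fold 4.25 were also called.

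Acvr2a (chr2:48814109-48903264, plus strand), which encodes the other activin type II receptor, had no GR fed peak and 1 GR starved peak, 46.8 kb into the gene, of fold 2.6 and q-value 0.0411. Its 1 LSD1 fed peak lay at the promoter, 0.048 kb upstream of the TSS, with a fold of 4.01 and a q-value of 0.0157. The 3 LSD1 starved peaks all lay upstream, the highest of fold 3.47 (q-value 0.0524). No peak of GR or LSD1 near Acvr2a had a q-value of 0.01 or less.

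Bmpr2 (chr1:59764279-59878081, plus strand), a type II receptor used chiefly by bone morphogenetic proteins, had 2 peaks in each of the GR fed, LSD1 fed and LSD1 starved lists and 1 in the GR starved list. The GR peak 7.75 kb into the gene had a fold of 3.58 in fed muscle (q-value 0.000467) and of 2.77 in starved muscle (q-value 0.022). The GR fed peak that matched the GRE with 2 mismatches, 15.4 kb into the gene, had a fold of 3.3 and no counterpart in starved muscle. LSD1 fed peaks of folds 4.25 and 4.23 lay 7.52 kb and 34.0 kb into the gene and overlapped no GR peak. The highest LSD1 starved peak, of fold 3.75 and q-value 0.00835, had its midpoint 1.01 kb upstream of the TSS and fell just outside the promoter limit.

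Of the receptor-activated Smads, Smad3 had many GR and LSD1 peaks, and Smad2 had 1 or none in each of those lists. Smad3 (chr9:63646767-63757994, minus strand) had GR and LSD1 peaks along its whole length. Among the 1636 genes with a window of 99.0 to 144 kb, 1.89% had as many GR peaks in fed and 1.28% in starved muscle, and 0.489% and 1.47% had as many LSD1 peaks. The Smad3 window was thus near the top of its length class in all 4 lists. With a q-value of 0.01 or less, it held 8 GR peaks in fed and 12 in starved muscle, and 5 and 1 LSD1 peaks.

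The strongest Smad3 peak, printed above, had a GR fold of 6.82 in fed muscle (q-value 1.52e-18) and of 4.05 in starved muscle (q-value 6.3e-07), and an LSD1 fed fold of 4.57. It and the other peaks more than 80 kb into the gene lie nearer to the TSS of Aagab than to that of Smad3. Within the gene but nearer to its own TSS, the GR peak at 55.1 kb had a fold of 4.91 in fed muscle (q-value 2.96e-09) and of 3.04 in starved muscle (q-value 0.00347). An LSD1 fed peak of fold 4.66 overlapped it. The upstream site, 22.6 kb from the TSS, was called in all 4 lists: GR had folds of 3.76 fed and 3.16 starved, and LSD1 had 4.88 fed, its highest at Smad3, and 3.39 starved.

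Of the 18 GR starved peaks of Smad3, 7 overlapped a GR fed peak, while 24.5% of the whole GR starved list did. The GR starved peak of highest fold in the gene, 4.2 with a q-value of 5.74e-08, lay 20.4 kb into the gene and overlapped neither a GR fed nor an LSD1 peak. A GR starved peak at 11.8 kb had a fold of 3.24 and a q-value of 3.28e-06, and overlapped a GR fed peak of fold 3.34. At the promoter, GR had a starved peak of fold 2.51 (q-value 0.0282) and no fed peak, while LSD1 had folds of 3.75 in fed muscle (q-value 0.0346) and 3.9 in starved muscle (q-value 0.00586). The highest LSD1 starved peak of Smad3, of fold 4.01 and q-value 0.0196, lay 31.9 kb into the gene and overlapped no GR peak.

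Smad2 (chr18:76241701-76311747, plus strand) had no GR fed peak. Its 1 GR starved peak lay 0.198 kb upstream of a TSS, with a fold of 2.94 and a q-value of 0.00378. The LSD1 fed peak there had a fold of 3.45 and a q-value of 0.0694, and the LSD1 starved peak, with its midpoint 0.115 kb downstream, had a fold of 3.33 and a q-value of 0.0604.

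Smad4 (chr18:73634790-73703791, minus strand), the partner shared by all receptor-activated Smads, was marked at its promoter. The GR fed peak lay 0.148 kb upstream of the TSS with a fold of 3.62 and a q-value of 0.000372, and GR had no peak there in starved muscle. LSD1 had fed peaks of folds 4.81 (q-value 0.000697) and 3.61 (q-value 0.0462) in the promoter, and starved peaks of folds 3.25 and 3.17, with q-values of 0.0515 and 0.0748, at the same places. This promoter is shared with 4930578L24Rik, which starts in the opposite direction. The single GR starved peak of Smad4 lay in an intron 29.2 kb from the TSS, with a fold of 2.7 and a q-value of 0.0324. The highest LSD1 starved peak of the gene, of fold 3.92, lay 7.63 kb upstream in the promoter of Gm32548.

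Smad7 (chr18:75367365-75395934, plus strand), the inhibitory Smad, had its promoter called in all 4 lists. The nearest TSS to these promoter peaks was that of Gm20544, and the GR starved and LSD1 starved peaks lay in its promoter as well. GR had folds there of 3.69 in fed muscle (q-value 4.98e-05) and 3.07 in starved muscle (q-value 0.000699). LSD1 had folds of 4.24 in fed muscle (q-value 0.0052) and 4.68 in starved muscle (q-value 0.000181). The starved LSD1 peak ranked 576 of 66332 by q-value and was the highest LSD1 starved peak of the 10 genes. It was 49 bp long, the shortest length in that list. The fed and starved LSD1 peaks did not overlap each other, with midpoints 0.62 kb and 0.325 kb upstream of the TSS, and both overlapped the GR peaks. Outside the promoter, 6 further GR starved peaks and no further GR fed peak were called, of which the highest had a fold of 2.81. Of the 7 GR starved peaks in all, 2 had a q-value of 0.01 or less, the promoter peak included. As many GR starved peaks were called for 10.5% of all genes.

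**Figure D3:**
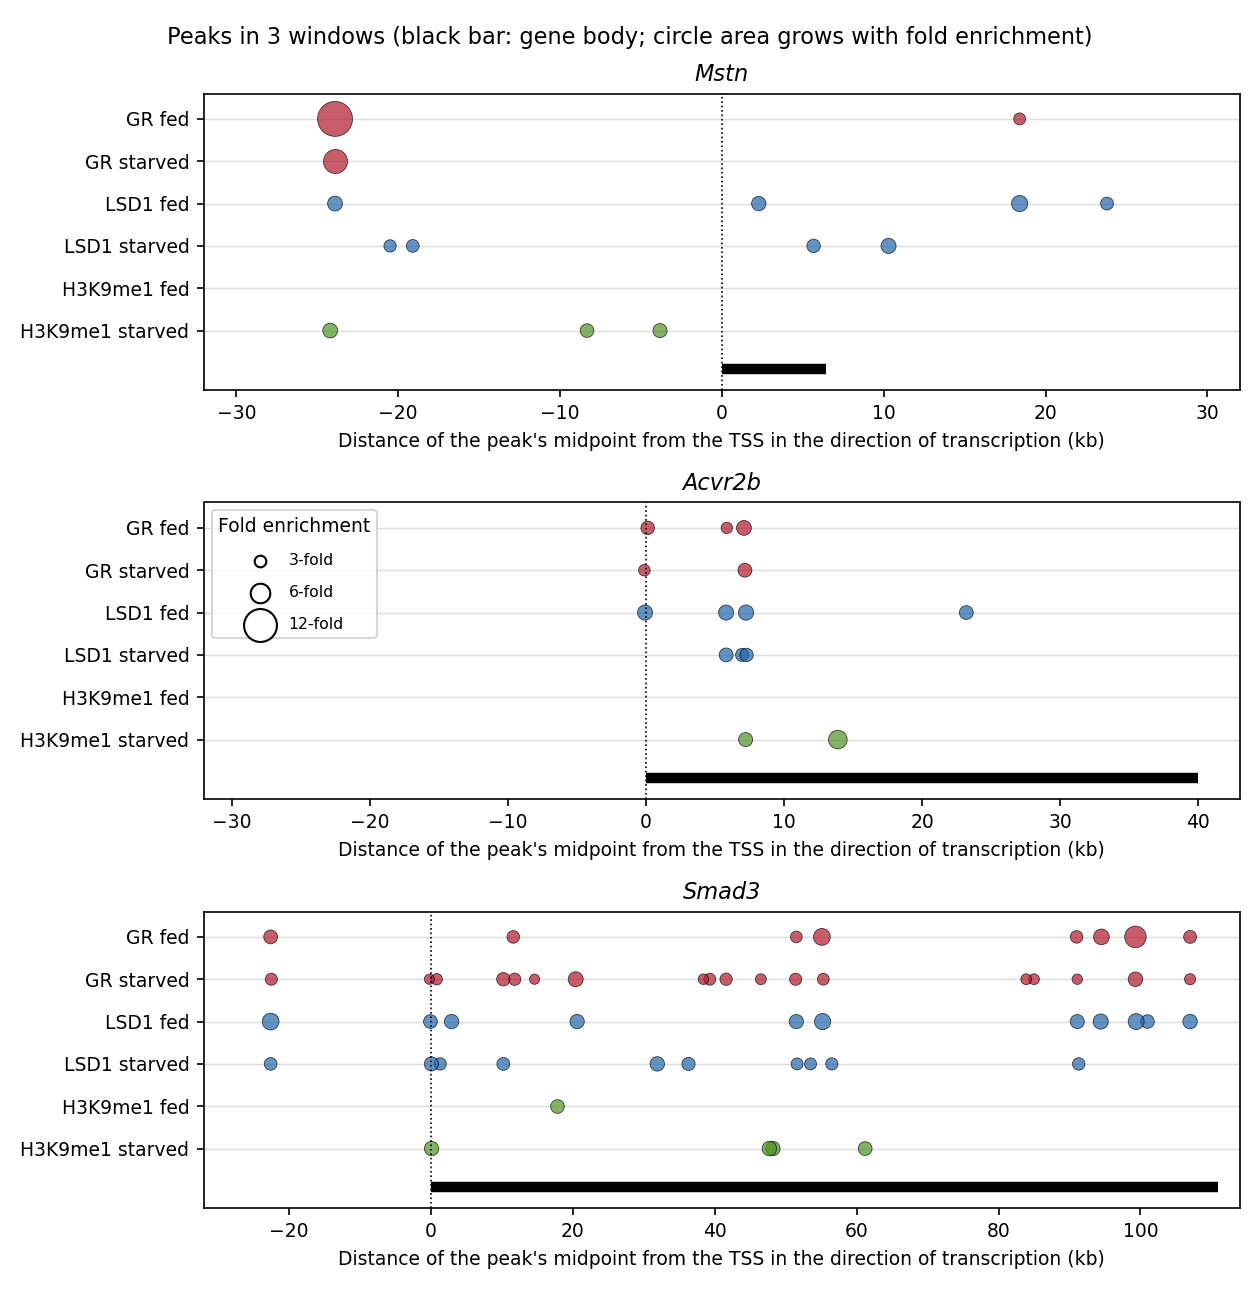
Position of each peak relative to the TSS in kb (x axis, positive in the direction of transcription) for Mstn, Acvr2b and Smad3, in 6 of the 8 lists (y axis). Circle area grows with fold enrichment and the black bar marks the gene body. The largest circles are the GR peaks 23.9 kb upstream of Mstn, and the peaks of Smad3 spread over the whole gene.

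Promoters were called for LSD1 more often than for GR in fed muscle. GR was called at 2 of the 10 promoters in fed muscle (Smad4 and Smad7), against 13.4% of all genes, and at 4 in starved muscle (Acvr2b, Smad2, Smad3 and Smad7), against 23.3%. LSD1 was called at 6 in fed muscle (Acvr2a, Acvr2b, Smad2, Smad3, Smad4 and Smad7), against 22.4%, and at 3 in starved muscle (Smad3, Smad4 and Smad7), against 16.2%. The 4 promoters with neither were those of Mstn, Fst, Fstl3 and Bmpr2. With a q-value of 0.01 or less, GR was at 2 promoters in fed muscle (8.09% of all genes) and 3 in starved muscle (11.3%), and LSD1 at 3 (10.4%) and 2 (2.99%).

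The 3 called promoters with a sequence, those of Acvr2a, Acvr2b and Smad3, were rich in CpG. RefSeq promoter stretches of 250 bases before to 50 bases after the TSS were found for Mstn, Fstl3, Acvr2a, Acvr2b, Bmpr2 and Smad3, and not for Fst, Smad2, Smad4 and Smad7. They held 6 CpG for Mstn, 23 for Bmpr2, 25 for Fstl3, 25 for Smad3, 27 for Acvr2b and 54 for Acvr2a. Over 19528 promoters the median was 25.0 CpG where an LSD1 fed peak was called and 8.0 where it was not, so Mstn, uncalled, lay near the uncalled median, while Fstl3 and Bmpr2, also uncalled, lay at or close to the called median. The 250 bases before the TSS (GRCm38, plus strand) are shown for Mstn, with no peak, and for Acvr2b, with GR and LSD1 peaks, with each CG in capitals. They lie at the start of chr1:53061390-53061689 and of chr9:119401928-119402227.
Mstn promoter: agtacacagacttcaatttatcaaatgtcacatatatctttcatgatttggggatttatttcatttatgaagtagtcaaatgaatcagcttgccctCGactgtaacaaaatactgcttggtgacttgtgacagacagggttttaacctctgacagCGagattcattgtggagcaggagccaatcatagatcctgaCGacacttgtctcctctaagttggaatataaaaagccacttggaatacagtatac
Acvr2b promoter: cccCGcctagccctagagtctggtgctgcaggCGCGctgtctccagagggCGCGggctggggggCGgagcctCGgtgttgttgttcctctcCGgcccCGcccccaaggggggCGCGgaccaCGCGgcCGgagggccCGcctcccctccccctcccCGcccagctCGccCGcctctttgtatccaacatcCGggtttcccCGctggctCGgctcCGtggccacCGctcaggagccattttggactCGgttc

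GR and LSD1 overlapped at most of the fed GR sites. Of the 19 GR fed peaks, 16 were overlapped by an LSD1 fed peak by at least 1 bp, which is 84.2% with an exact 95% binomial interval of 60.4 to 96.6% that covers counting error alone. The share over the whole GR fed list was 48.3%. All GR fed peaks of Mstn, Fstl3, Acvr2b, Smad4 and Smad7 were among the 16, as were 7 of the 8 of Smad3, and the 2 of Bmpr2 were not. Read from the other side, a GR fed peak overlapped 16 of the 31 LSD1 sites (51.6%, interval 33.1 to 69.8%), beside 42.8% of the whole list. Since neighbouring peaks of 1 gene share a locus, these peaks are not independent of each other.

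In starved muscle fewer sites were shared, as over the whole lists. Of the 38 GR starved peaks, 10 (26.3%, interval 13.4 to 43.1%) were overlapped by an LSD1 starved peak, beside 14.7% of the whole list. Of the 10, 5 were in Smad3, 2 in Smad7 and 1 each in Fstl3, Acvr2b and Smad2. The fed LSD1 list overlapped 15 of the same 38 GR starved peaks (39.5%, interval 24.0 to 56.6%), beside 22.9% of the whole list. Read from the LSD1 starved side, a GR starved peak overlapped 11 of 41 (26.8%, interval 14.2 to 42.9%), beside 9.14% of the whole list, and an LSD1 fed peak overlapped 8 of 41 (19.5%, interval 8.82 to 34.9%), beside 5.85%. The difference between the shares in fed and starved muscle was not tested, since each rests on 1 library.

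As over the whole lists, GR sites were mostly kept between the conditions, and LSD1 sites mostly were not. A GR starved peak overlapped 14 of the 19 GR fed peaks (73.7%, interval 48.8 to 90.9%), beside 65.8% of the whole list. The 5 fed peaks without one were the downstream site of Mstn, the site 5.86 kb into Acvr2b, the site 15.4 kb into Bmpr2, the site 94.5 kb into Smad3 and the promoter of Smad4. An LSD1 starved peak overlapped 8 of the 31 LSD1 fed peaks (25.8%, interval 11.9 to 44.6%), beside 23.1% of the whole list, and these 8 were 4 in Smad3, 2 in Acvr2b and 2 in Smad4. A GR starved peak overlapped 16 of the 31 LSD1 fed peaks (51.6%, interval 33.1 to 69.8%), beside 55.1% of the whole list. The share of the whole list lay outside the interval for GR fed and GR starved peaks overlapped by LSD1 fed peaks. It also lay outside for both shares of LSD1 starved peaks, and inside for the other 5 shares. This sorting is a description and not a test. The intervals cover counting error alone and treat peaks as independent, although many lay near the same gene. The genes were also chosen with earlier results of these data known.

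At sites called in both conditions the fold was mostly lower in starved muscle. GR had 14 such sites near the 10 genes, with a higher fold in starved muscle at 1, a Smad3 site 51.5 kb from the TSS, and a median starved over fed ratio of 0.829, between 0.594 and 1.05. Over all 9287 shared GR sites the median ratio was 0.877 and 21.2% were higher in starved muscle. LSD1 had 8 such sites, 1 of them higher in starved muscle, the Smad3 promoter, with a median ratio of 0.843, between 0.676 and 1.04. Over all 3834 shared LSD1 sites the median was 0.853 and 12.6% were higher. The lowest GR ratios were 0.594 at the strongest Smad3 site and 0.609 at the upstream site of Mstn, the sites of highest fed fold. Fold enrichment depends on the depth and input of each library, so a ratio between conditions here is a comparison of 1 library with another.

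**Figure D4:**
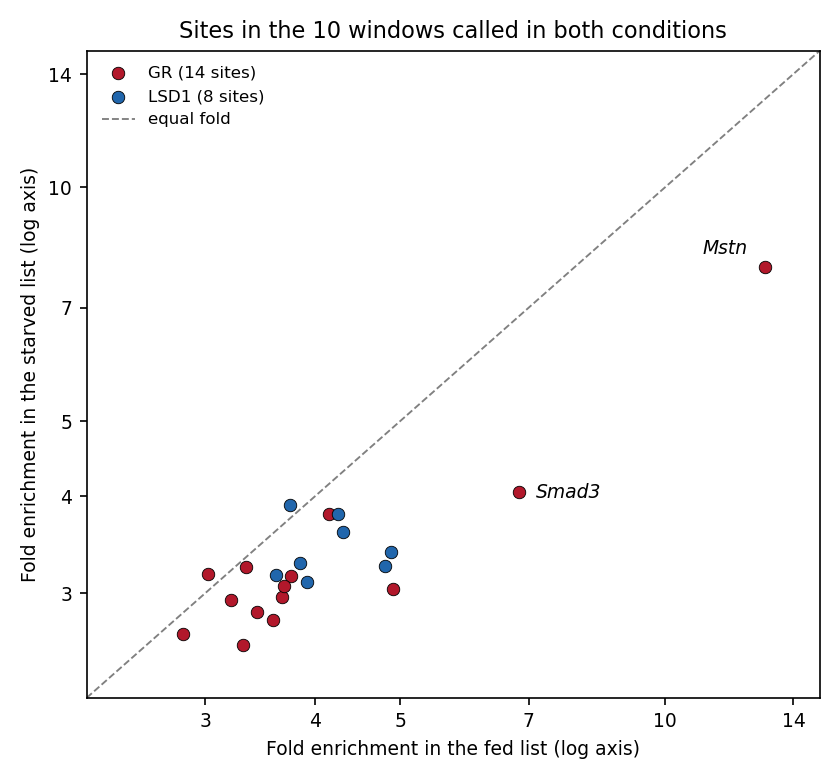
Fold enrichment of the same site in the fed list (x axis) and in the starved list (y axis), both on log axes, for the 14 GR sites (red) and 8 LSD1 sites (blue) near the 10 genes that were called in both conditions. All but 1 GR site and 1 LSD1 site lie below the dashed line of equal fold, the Mstn upstream site at 13.0 and 7.9.

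H3K9me1, a mark that removal of 1 methyl group from H3K9me2 produces, had a density near these genes of 0.548 peaks per 100 kb in fed muscle, beside 0.656 over all genes, and of 1.86 in starved muscle, beside 1.64. In fed muscle 5 of the 10 had a peak, against 38.0% of all genes, with 1 each for Fstl3, Acvr2a, Smad3, Smad4 and Smad7. In starved muscle 8 had one, against 65.6%, and Smad2 and Smad7 did not. Fed muscle had 5 peaks in all and starved muscle 17. With a q-value of 0.01 or less the counts were 1 of 10 (18.5% of all genes) in fed and 6 of 10 (40.5%) in starved muscle. No promoter was called in fed muscle, against 1.94% of all genes, and in starved muscle 1 was called, that of Smad3, against 3.1%. This Smad3 peak had a q-value of 0.0266, above 0.01.

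The highest H3K9me1 fold was 5.62 in starved muscle, in an intron of Acvr2b 13.9 kb from the TSS (q-value 1.12e-05), and in fed muscle 4.25, in an intron of Acvr2a 82.3 kb from the TSS (q-value 0.00339). Both peaks were 49 bp long, the shortest length in their lists, whose medians were 49 bp fed and 64 bp starved. Mstn had 3 starved peaks and no fed peak. The highest of these, of fold 4.11 and q-value 0.0113, was 49 bp long and lay 24.2 kb upstream, beside the GR site and not overlapping it. None of the 5 fed peaks was overlapped by a starved one, beside 2.79% of the whole fed list.

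H3K9me2, a mark linked to silent chromatin, was called near all 10 genes in fed muscle and near none in starved muscle. The fed windows held 117 peaks and all 10 genes had one, against 95.5% of all genes, and in the starved list 0 of 10 had one, against 10.2%. With a q-value of 0.01 or less, 8 of 10 had a fed peak, against 68.3%, and 0 of 10 a starved peak, against 1.94%. At the promoter, 5 had a fed peak (Acvr2a, Fstl3, Smad3, Smad4 and Smad7), against 22.3%, and 0 a starved peak, against 0.21%. With a q-value of 0.01 or less, 1 promoter kept a fed peak, that of Smad3, against 5.47%. The whole fed list held 171402 peaks and the starved list 6624, so the 0 near these genes stands beside a list with few peaks anywhere.

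Per gene, the fed H3K9me2 count was 22 for Smad3, 18 for Acvr2a, 16 for Bmpr2, 15 for Smad7, 14 for Smad2 and 13 for Smad4, and between 3 and 6 for the other 4. Per 100 kb of window, Smad7 had the most, 25.0, and Acvr2b the fewest, 4.29, beside 8.31 over all genes. The highest folds were 5.45 at Smad3 (q-value 5.2e-06), 4.95 at Smad2 (q-value 0.000127) and 4.62 at Smad7 (q-value 0.000454). These peaks were 57, 50 and 52 bp long, in a list whose shortest peak was 50 bp and whose median was 92 bp. H3K9me2 overlapped 3 of the 19 GR sites of fed muscle (15.8%), beside 16.5% of the whole list, and 4 of the 31 LSD1 sites (12.9%), beside 16.8%. Acvr2b and Mstn had no H3K9me2 peak at a q-value of 0.01 or less.

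The wider pathway was looked at in 33 other genes: other ligands, receptors, Smads, inhibitors, processing enzymes and the target Fbxo30. Of these, 25 had a GR peak in fed and 30 in starved muscle (43.1% and 66.5% of all genes), and 27 and all 33 had an LSD1 peak (51.1% and 83.7%). Their median number of GR peaks was 1.0 in fed and 4.0 in starved muscle, beside 1.5 and 1.0 for the 10 genes and 0.0 and 1.0 over all genes. Their median number of LSD1 peaks was 2.0 and 3.0, the same as for the 10 genes, beside 1.0 and 2.0 over all genes. The 33 genes had windows of 60.0 to 362 kb, beside a median of 60.0 kb over all genes. Their counts were not matched for window length. In fed and starved muscle, promoters were called in 12 and 14 of them for GR (13.4% and 23.3% of all genes) and in 20 and 15 for LSD1 (22.4% and 16.2%). The most GR starved peaks were at Tgfbr3, a coreceptor of the family, with 15 in a window of 213 kb, at Wfikkn2, a secreted inhibitor of myostatin, with 13 in 60.0 kb, and at the corepressor Ski, with 10 in 98.5 kb. In fed muscle these 3 had 5, 2 and 2 GR peaks.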

How the data were processed

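Per the study's methods, immunoprecipitated DNA was sequenced as single-end reads, mapped to mm10 with Bowtie, and peaks were called with MACS2 in broad mode against input, 1 library at a time. The submitters' processing notes name bcl2fastq 2.20.0.422. The deposited lists give each peak's fold enrichment over input (a ratio), the −log10 p-value and −log10 q-value, and a score, all made by the authors; the 2 input libraries have no list. Peaks are mentioned in the methods with a false discovery rate of 0.01, which the deposited q-values exceed. No counts were used, so depth and its precision are unknown.

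The 10 genes, the 33 pathway genes and the markers were chosen with earlier results of these data known. Genes were 45756 curated RefSeq transcripts of GRCm38, grouped into 26180 genes. A peak was assigned by its midpoint, windows were the gene body and 30 kb around each TSS, promoters ran from 1000 bp upstream to 100 bp downstream, and overlap needed 1 bp. The peaks named by rule were all promoter peaks of GR and LSD1, the peak of highest fold per gene and list, and GR starved peaks whose q-value was at most 1e-05; the other peaks were named after their values were seen, mostly as neighbours or counterparts of these. With 1 library per group no test was made, and intervals are exact binomial. Sequences came from RefSeq (GRCm38). Scripts used Python 3.11.15, pandas 2.3.3, numpy 2.4.6 and scipy 1.17.1, and were tested on simulated data. Alternatives changed the thresholds, windows, overlaps and motif mismatches.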

Additional observations from a re-analysis of the deposited data

Results flagged for a closer look

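The H3K9me1 and H3K9me2 lists moved in opposite directions from fed to starved muscle in the 10 windows. H3K9me1 peaks were 12 more in starved than in fed muscle (17 and 5), and the starved minus fed difference of H3K9me2 was -117 (0 and 117). More H3K9me1 peaks were called in starved muscle for 7 genes and fewer for 1 (Smad7), and fewer H3K9me2 peaks for all 10. This contrast of the marks was not tested, with 1 library each. Over the whole lists the starved list was 2.68 times as long as the fed list for H3K9me1 and 0.0386 times as long for H3K9me2, and for both marks the library code changed with the condition, so the code and starvation cannot be told apart.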

How the results depend on the processing

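No paired analysis was possible because each antibody and condition had 1 library. For the number of genes with a peak, a q-value of 0.01 or less lowered LSD1 starved to 4 and H3K9me1 fed to 1. The shares of all genes at that q-value were 24.0% and 18.5%. A q-value of 1e-05 or less left 3 genes for GR fed, 3 for GR starved, 1 for H3K9me2 fed and 0 for LSD1 fed, LSD1 starved, H3K9me1 fed and H3K9me1 starved. A fold of at least 5 left 2 genes for GR fed, 1 for GR starved, 1 for LSD1 fed, 0 for LSD1 starved, 0 for H3K9me1 fed, 2 for H3K9me1 starved and 1 for H3K9me2 fed. Windows of the gene body or 10 kb around a TSS gave 3 genes for H3K9me1 fed and 5 for H3K9me1 starved, and the gene body alone gave 4 for GR fed, 2 for H3K9me1 fed and 4 for H3K9me1 starved. Lists cut to equal length by fold gave 6 genes for LSD1 starved, 5 for H3K9me1 starved and 3 for H3K9me2 fed. With a q-value of 0.01 or less in both lists, LSD1 starved peaks overlapped 5.0% of GR starved peaks and 0.0% of LSD1 fed peaks. Over the whole lists these shares were 6.43% and 8.54%. These tighter settings keep fewer peaks by construction. Apart from the q-value of 0.01, the share of all genes was not computed at these settings. Those counts therefore cannot be read as above or below it.

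In the 45 other recomputations of these results, the setting kept a count within 1.5 times, or a share inside its interval. Several of these could not come out otherwise. The H3K9me2 starved count was 0 from the start, and cutting to equal length leaves the shorter list unchanged. Counting any base of a peak cannot change a count of 10 of 10. The limit of 1.5 times also admits falls from 9 to 6 for GR starved and from 10 to 7 for LSD1 fed. For the share of GR fed peaks overlapped by LSD1 fed peaks the alternatives gave 66.7% to 89.5%. Leaving out Smad3, chosen after seeing the data, left the 5 overlap shares inside their intervals, and left 11 GR peaks in fed and 20 in starved muscle, and 20 and 31 LSD1 peaks. Peaks whose nearest TSS was the gene's own, also chosen after seeing the data, numbered 12, 25, 21 and 28. A peak with any base in the promoter gave 3 genes for GR fed and 5 for LSD1 starved. The share of all genes was not computed for this setting. The background split by window length was added after seeing the data too. The read depth of each library was not analysed here, which limits every comparison of list lengths.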
